A study of Mus musculus with 10 samples.

Results

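The genes described here encode the machinery that prepares peptides for MHC class I: the transporter subunits Tap1 and Tap2, the loading chaperones Tapbp and Tapbpl, the class I light chain B2m, the immunoproteasome subunits Psmb8, Psmb9 and Psmb10, the trimming peptidase Erap1 and the transactivator Nlrc5. They were taken by symbol, each from a probe that the array annotation pairs with that symbol alone, and where a gene had several, the one brightest on average across the 10 arrays was used. All 10 genes were found, of 19938 genes with such a probe. RNA came from MC38 (mouse colon carcinoma) tumors grown under the skin of C57BL/6 mice. The 5 CpG1826 tumors (mice 50, 58, 183, 189 and 595) had received 50 µg of CpG1826, an oligodeoxynucleotide that activates mouse TLR9, in 50 µL of PBS at a size of about 40 mm2, and were taken 6 h later. The 5 PBS tumors (mice 26, 29, 482, 592 and 661) had been injected with PBS, and the same schedule was assumed for them because the labels describe only one. Each tumor was hybridised to 1 whole-transcript array, and values are the log2 values that the authors deposited. The precision of group means and fold changes is limited by the 5 tumors per group. The labels give no sex, age or donor detail beyond a mouse number, which was read as 1 animal per array, and a tumor from a transplanted line holds host leukocytes, stroma and skin as well as MC38 cells.

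Cytosolic proteins are cut into peptides by the proteasome. Psmb8, Psmb9 and Psmb10 can take the place of the constitutive catalytic subunits Psmb5, Psmb6 and Psmb7, which gives the immunoproteasome. The TAP transporter, a dimer of Tap1 and Tap2, moves the peptides into the endoplasmic reticulum, where Erap1 trims their N-terminal ends. Tapasin (Tapbp) and the related editor TAPBPR (Tapbpl) help to load them onto a class I heavy chain paired with β2-microglobulin (B2m). Nlrc5 drives transcription of class I genes together with RFX, CREB and NF-Y factors, and most genes of the pathway are known to be inducible by interferons.

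Psmb9, Tap1, Psmb8 and Tap2 stand next to each other, in that order, among the protein-coding genes of chromosome 17 in the RefSeq annotation of GRCm38.p6. A promoter sequence was found in RefSeq for 7 of the 10 genes, from 250 bases before to 50 bases after each start. Psmb9 and Tap1 are read away from each other, with 225 bases between their start sites. This shared stretch is shown because both genes are members, with the B2m and Tapbp promoters as members on 2 chromosomes and the promoter of Rsad2, an interferon-induced antiviral gene that rose here, beside them. Capitals mark every match, on either strand, to GAAA, any 2 bases and GAAA (the core of an interferon-stimulated response element), CCAAT (the NF-Y site) or GGGA, any 4 bases and CC (one form of κB site). Coordinates are those of GRCm38.p6, and each sequence runs 5′ to 3′.
Psmb9 to Tap1, between the start sites, chr17:34187331-34187555, plus strand: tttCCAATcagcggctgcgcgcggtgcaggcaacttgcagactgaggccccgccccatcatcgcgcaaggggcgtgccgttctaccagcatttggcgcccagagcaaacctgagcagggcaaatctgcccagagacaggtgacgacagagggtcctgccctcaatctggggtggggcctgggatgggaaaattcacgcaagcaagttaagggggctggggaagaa
B2m, 250 bases before the start, chr2:122147437-122147686, plus strand: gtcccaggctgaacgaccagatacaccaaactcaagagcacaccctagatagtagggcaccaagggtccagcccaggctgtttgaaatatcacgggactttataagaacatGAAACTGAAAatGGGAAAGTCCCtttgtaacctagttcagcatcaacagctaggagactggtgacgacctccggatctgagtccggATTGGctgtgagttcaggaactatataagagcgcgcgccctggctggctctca
Tapbp, 250 bases before the start, chr17:33919228-33919477, plus strand: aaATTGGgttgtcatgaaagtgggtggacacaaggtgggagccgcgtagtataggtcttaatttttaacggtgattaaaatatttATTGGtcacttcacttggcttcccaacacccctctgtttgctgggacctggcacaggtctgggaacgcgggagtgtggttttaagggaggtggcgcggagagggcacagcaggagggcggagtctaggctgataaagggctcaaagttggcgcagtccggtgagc
Rsad2, 250 bases before the start, chr12:26456453-26456702, minus strand: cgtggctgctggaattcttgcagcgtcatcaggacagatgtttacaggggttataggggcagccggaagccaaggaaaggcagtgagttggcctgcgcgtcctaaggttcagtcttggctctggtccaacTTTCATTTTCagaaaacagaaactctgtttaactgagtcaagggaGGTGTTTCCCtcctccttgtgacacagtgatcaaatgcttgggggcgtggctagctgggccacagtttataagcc

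The element core was present in 2 of the 7 member windows, those of B2m and Erap1, against 3.44% of all 32851 windows, and in 8 of 16 windows of 15 interferon-stimulated genes of a comparison list. CCAAT stood in 4 member windows (B2m, Tap1, Tapbp and Psmb9, where Tap1 and Psmb9 hold the same copy), against 37.4% of all windows. The κB form occurred in 1 member window, that of B2m (20.7% of all windows), where 2 overlapping matches on opposite strands make up the run GGGAAAGTCCC. A match describes the letters in a window and was not tested as a binding site.

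At 6 h the transport, loading and immunoproteasome genes lay at nearly the same levels in CpG1826 and PBS tumors. Of the 10 genes, 0 were called by limma, up or down (Benjamini-Hochberg adjusted p under 0.05), beside 4.66% of all genes. At an unadjusted p under 0.05, 1 of the 10 (Tap1) was higher and 0 were lower, against 8.13% higher and 7.43% lower among all genes. CpG1826 and PBS values overlapped for every one of the 10 genes, and they stood apart for 6.78% of all genes (4.35% higher, 2.42% lower). In a set of 10 genes, counts of 0 lie near these shares and do not set the members apart from other genes. The median log2 fold change of the 10 was 0.04, beside -0.02 over all genes, and ranged from -0.06 for Erap1 to 0.20 for Nlrc5. The 95% confidence intervals of the members reached at most 1.32-fold upward (Nlrc5) and at most 1.22-fold downward (Erap1). All 10 genes read above the array medians (6.47 to 6.53) in every tumor.

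**Figure D1:**
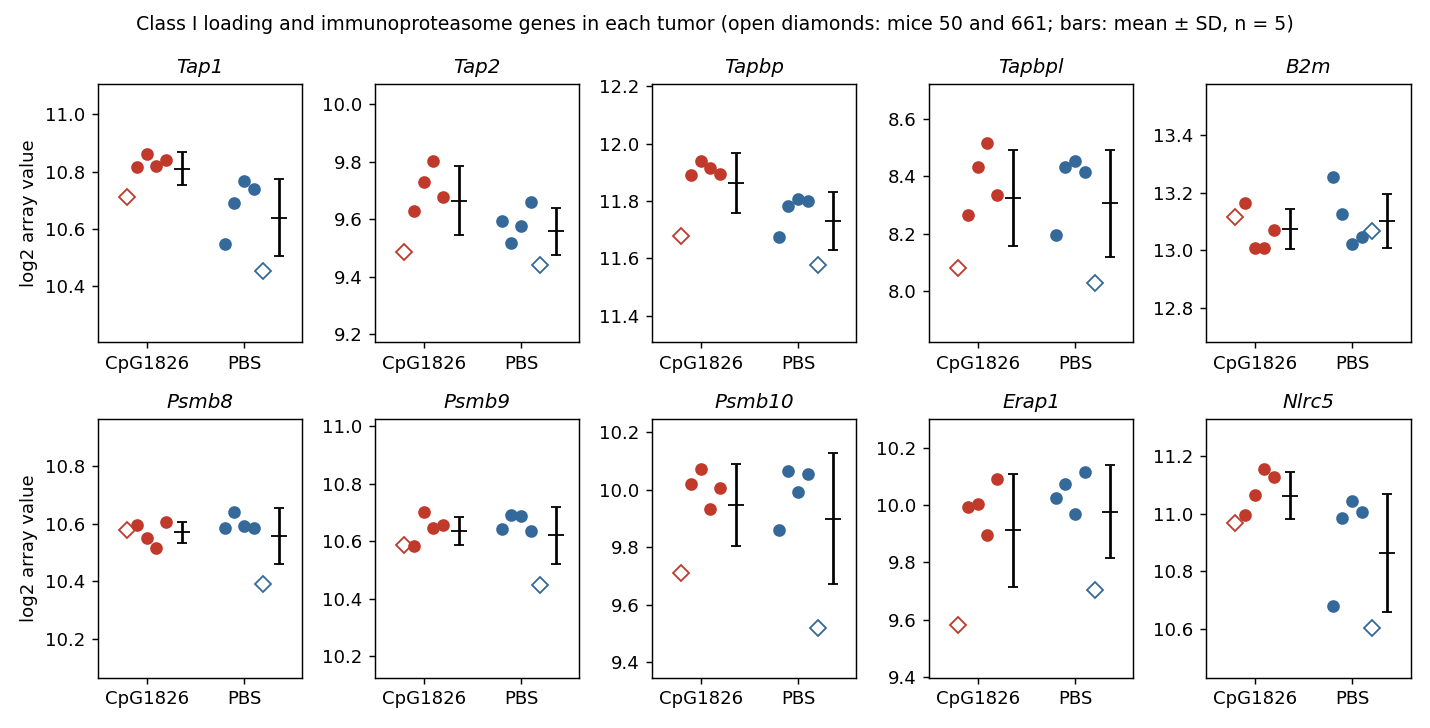
Log2 array value of each gene in each tumor (y axis, a span of 0.9 log2 units in each panel), CpG1826 left and PBS right, with the mean ± SD of 5 tumors. Open diamonds mark CpG1826 mouse 50 and PBS mouse 661. Tap1 is above the highest PBS value in 4 of 5 CpG1826 tumors, while Psmb8 and Psmb9 differ by 0.01 log2 units between the group means.

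The 2 transporter subunits leaned upward without passing the test. Tap1, whose start lies beside that of Psmb9, had log2 values of 10.71, 10.82, 10.86, 10.82 and 10.84 in CpG1826 mice 50, 58, 183, 189 and 595, against 10.55, 10.69, 10.77, 10.74 and 10.45 in PBS mice 26, 29, 482, 592 and 661. Of the CpG1826 tumors, 4 lay above the highest PBS tumor, and the 2 lowest values were those of PBS mice 661 and 26. The log2 fold change of Tap1 was 0.17 ± 0.07 (SE), or 1.12-fold (95% confidence interval 1.01 to 1.26, limma unadjusted p = 0.0372, adjusted p = 0.278). Tap2, the partner subunit, read 9.48, 9.63, 9.73, 9.80 and 9.68 in the CpG1826 mice and 9.59, 9.52, 9.58, 9.66 and 9.44 in the PBS mice, in the same order of mice. For Tap2, 3 of 5 CpG1826 tumors were above every PBS tumor and CpG1826 mouse 50 was below all but PBS mouse 661. The change of Tap2 was 0.11 ± 0.07 on the log2 scale (SE; 1.08-fold, 0.965 to 1.20, limma adjusted p = 0.547).

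Among the loading genes, tapasin showed the larger difference and its relative almost none. Tapbp had 11.68, 11.89, 11.94, 11.92 and 11.89 in CpG1826 mice 50, 58, 183, 189 and 595, against 11.68, 11.78, 11.81, 11.80 and 11.58 in PBS mice 26, 29, 482, 592 and 661. As for Tap1, 4 of 5 CpG1826 tumors lay above the highest PBS tumor, and CpG1826 mouse 50 lay at the level of PBS mouse 26. The fold change of Tapbp was 1.10 (95% confidence interval 0.984 to 1.22, limma adjusted p = 0.424). Tapbpl averaged 8.33 ± 0.17 in CpG1826 and 8.31 ± 0.19 in PBS tumors (SD, n = 5 per group; limma adjusted p = 0.956), with CpG1826 mouse 50 at 8.08 and PBS mouse 661 at 8.03 as its 2 lowest values. B2m, the light chain of every class I molecule, had 13.12, 13.17, 13.01, 13.01 and 13.07 in CpG1826 mice and 13.25, 13.13, 13.02, 13.05 and 13.07 in PBS mice. The highest B2m value belonged to PBS mouse 26, and the groups covered almost the same range (0.98-fold, 0.887 to 1.08, limma adjusted p = 0.889). B2m was among the brightest genes, in a table whose highest value is 14.70.

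Of the immunoproteasome subunits, Psmb8 and Psmb9 had the smallest differences among the 10 genes. Psmb8, which replaces Psmb5, had 10.58, 10.60, 10.55, 10.52 and 10.61 in CpG1826 mice 50, 58, 183, 189 and 595, against 10.59, 10.64, 10.59, 10.59 and 10.39 in PBS mice 26, 29, 482, 592 and 661. The CpG1826 values lay inside the PBS range, whose low end was set by PBS mouse 661 alone. Psmb8 differed by 0.01 ± 0.06 on the log2 scale (SE; 1.01-fold, 0.917 to 1.11, limma adjusted p = 0.958). Psmb9, which replaces Psmb6, had 10.59, 10.58, 10.70, 10.65 and 10.66 in CpG1826 mice and 10.64, 10.69, 10.69, 10.63 and 10.45 in PBS mice. PBS mouse 661 was again the lowest, and the fold change of 1.01 had an interval of 0.916 to 1.11 (limma adjusted p = 0.949). Psmb10, which replaces Psmb7, varied more, with 9.71, 10.02, 10.07, 9.93 and 10.01 in CpG1826 mice against 9.86, 10.07, 9.99, 10.06 and 9.52 in PBS mice. Its 2 lowest values came from CpG1826 mouse 50 and PBS mouse 661, and its fold change was 1.04 (0.881 to 1.22, limma adjusted p = 0.880). An increase of these transcripts by more than 1.11-fold for Psmb8 and Psmb9, or 1.22-fold for Psmb10, was outside the confidence intervals.

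Each inducible subunit was then set against its constitutive counterpart within the same tumor, as the difference of their log2 values, which follows unequal change of a pair and not the abundance of either. Psmb8 minus Psmb5 was 1.27 ± 0.10 in CpG1826 and 1.19 ± 0.10 in PBS tumors (SD, n = 5 per group), a group difference of 0.07 (95% confidence interval -0.07 to 0.22, exact permutation test, two-sided p = 0.278). Psmb10 minus Psmb7 was -1.37 ± 0.13 in CpG1826 and -1.46 ± 0.19 in PBS tumors (SD, n = 5 per group), a difference of 0.09 (-0.15 to 0.33, exact permutation p = 0.405). Psmb9 minus Psmb6 went the other way, at -0.04 ± 0.04 in CpG1826 and 0.09 ± 0.13 in PBS tumors (SD, n = 5 per group), a difference of -0.14 (-0.28 to 0.01, exact permutation p = 0.0397). The confidence intervals of the 3 differences come from an ordinary linear model with a t distribution, not from the permutation test, so interval and p can differ at the threshold. After adjustment over the 3 pairs, 0 passed (adjusted p = 0.405, 0.405 and 0.119 in the order given). The Psmb9 pair spread widely among PBS tumors, from -0.02 in PBS mouse 661 to 0.30 in PBS mouse 26, and of the fits that left out mice in turn, Psmb9 over Psmb6 passed in that without PBS mouse 661 (-0.17, adjusted exact permutation p = 0.0476, the others up to 0.333). The 3 constitutive genes themselves did not pass: Psmb5 differed by -0.06, Psmb6 by 0.15 and Psmb7 by -0.04 on the log2 scale (limma adjusted p = 0.713, 0.321 and 0.823).

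**Figure D2:**
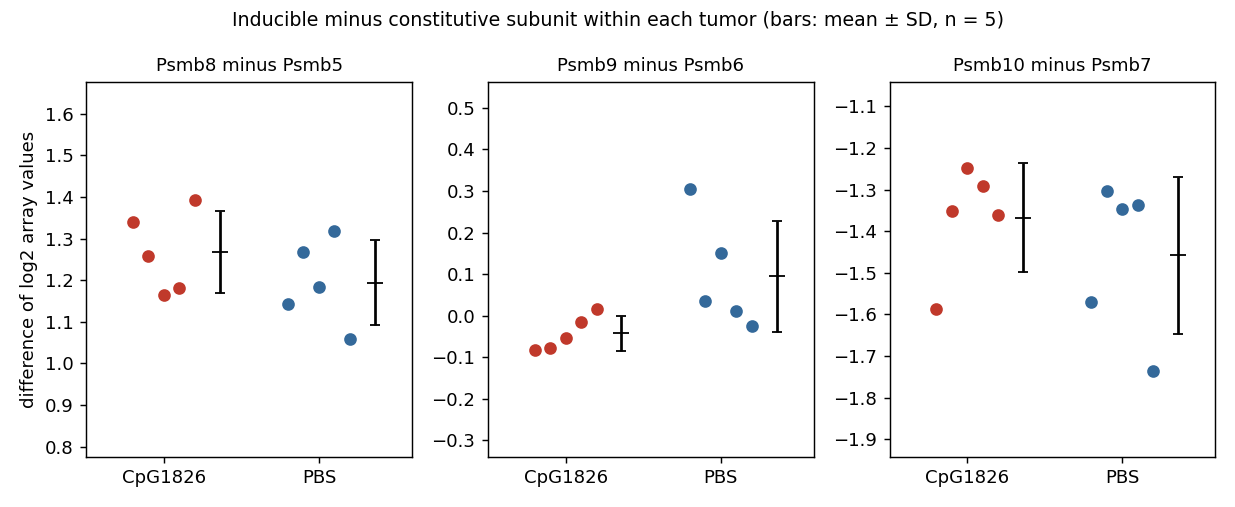
Difference of the log2 values of an inducible subunit and its constitutive counterpart in each tumor (y axis, a span of 0.9 log2 units in each panel), CpG1826 left and PBS right, with the mean ± SD of 5 tumors. The groups overlap in all 3 pairs, and the mean difference between groups is 0.07, -0.14 and 0.09 from left to right.

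Erap1, the aminopeptidase of the endoplasmic reticulum, had 9.58, 9.99, 10.002, 9.90 and 10.09 in CpG1826 mice 50, 58, 183, 189 and 595, against 10.02, 10.07, 9.97, 10.12 and 9.71 in PBS mice 26, 29, 482, 592 and 661. CpG1826 mouse 50 was the lowest tumor of all and PBS mouse 661 the second lowest, and the remaining 8 tumors lay between 9.90 and 10.12. The fold change of Erap1 was 0.956 (95% confidence interval 0.820 to 1.12, limma adjusted p = 0.834).

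Nlrc5, the regulator of class I transcription, had the largest change of the 10 genes. Its brightest probe had 10.97, 10.997, 11.06, 11.16 and 11.13 in CpG1826 mice 50, 58, 183, 189 and 595, against 10.68, 10.99, 11.05, 11.01 and 10.60 in PBS mice 26, 29, 482, 592 and 661. PBS mice 26 and 661 were low, the other 3 PBS mice lay within the CpG1826 range, and the fold change was 1.15 (95% confidence interval 0.998 to 1.32, limma adjusted p = 0.331). Nlrc5 alone among the 10 genes has several probes of its own, 19 in all, which share the same RNA samples and so are not independent. Of these 19 probes, 18 were higher in CpG1826 tumors, with a median log2 fold change of 0.22 and a range of -0.01 to 0.35. None passed when all 21789 single-symbol probes were adjusted together (0 of 19, against 4.48% of those probes), and 10 of 19 had an unadjusted limma p under 0.05, against 15.3% of those probes. For 2 of the 19 probes the CpG1826 values all lay above the PBS values, as for 4.35% of all genes. The mean of the 19 probes changed by 0.21 on the log2 scale (limma adjusted p = 0.216), close to the brightest probe.

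**Figure D3:**
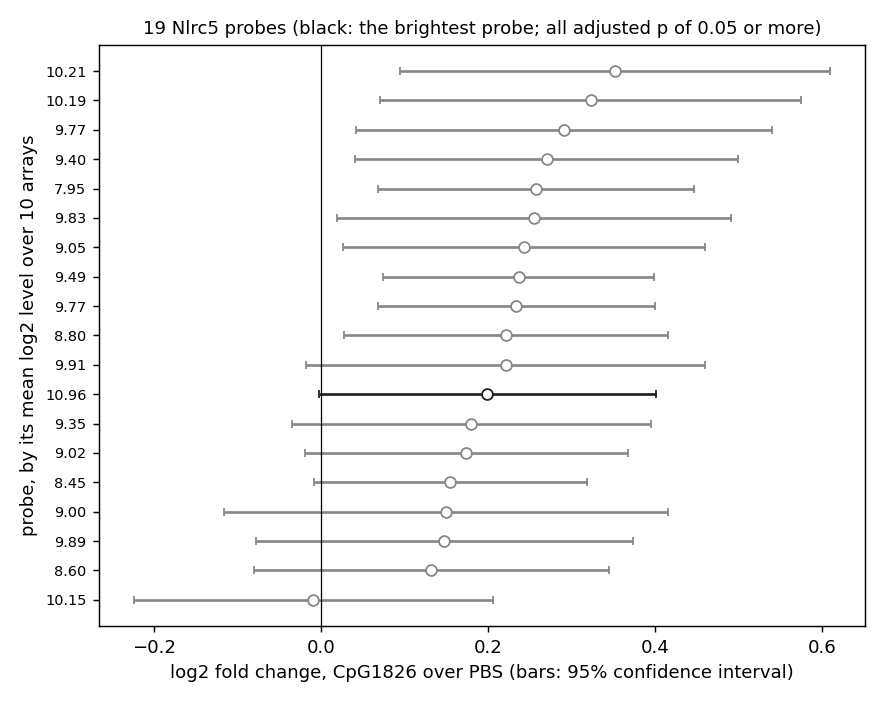
Log2 fold change of CpG1826 over PBS for each of 19 Nlrc5 probes (x axis, with 95% confidence interval), ordered by size and named by mean log2 level (y axis). Probes lie between -0.01 and 0.35, 18 of them above 0, and all have an adjusted p of 0.05 or more.

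Regulators of class I genes other than Nlrc5 moved in part. Of 17 measured regulators, Nlrc5 included, 3 rose and 1 fell, with a median log2 fold change of 0.12, beside 3.56% of all genes that rose and 1.10% that fell. Stat2, which carries interferon signals to the nucleus, was 1.42-fold higher (95% confidence interval 1.20 to 1.67, limma adjusted p = 0.0167), and Relb, a subunit of the alternative NF-κB pathway, 1.37-fold (1.21 to 1.55, limma adjusted p = 0.0059). Rfx5, a DNA-binding partner of both Nlrc5 and Ciita, was 1.24-fold higher (1.10 to 1.40, limma adjusted p = 0.0417), a call lost in 9 of the 10 fits that left out 1 mouse, all but that without CpG1826 mouse 189 (adjusted p up to 0.105). Irf1, an activator of Tap1 and Psmb9, did not pass (1.08-fold, 0.949 to 1.22, limma adjusted p = 0.612). Ciita, the class II counterpart of Nlrc5, was 0.562-fold as high (limma adjusted p = 0.00442), with 6.11 ± 0.32 in CpG1826 and 6.94 ± 0.24 in PBS tumors (SD, n = 5 per group). Nlrc5 and Ciita thus had estimates of opposite sign, 0.20 and -0.83 on the log2 scale, and the difference between them was not tested.

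Few genes elsewhere in the pathway passed the test, which 4.66% of all genes passed in either direction. Of 14 loading complex and folding genes, 5 of them among the 10 genes above, 0 passed in either direction, and the other 9 had a median log2 fold change of -0.11 and a range of -0.22 to 0.01. Calreticulin (Calr), calnexin (Canx) and the oxidoreductase Pdia3, which assist the folding of heavy chains, had log2 fold changes of -0.11, -0.08 and -0.12 (limma adjusted p = 0.417, 0.584 and 0.525), and Calr was lower in all 5 CpG1826 tumors than in any PBS tumor (as were 2.42% of all genes). Among 10 measured heavy chain and class Ib genes, 0 passed and the median was 0.10, with H2-Q4 at 0.11 and H2-T10 at 0.16. The largest of these differences, named after their values were seen, were those of H2-T24 (0.31, limma adjusted p = 0.275) and H2-M3 (0.22, limma adjusted p = 0.228). The classical heavy chains H2-K1 and H2-D1 were not analysed here. Of 8 peptidases, Erap1 included, 0 passed, and the other 7 had a median of -0.03, with the cytosolic aminopeptidase Npepps at 0.13 and the metallopeptidase Nrd1 at 0.01. H2-Q4 and Npepps were higher in all 5 CpG1826 tumors than in any PBS tumor, as were 4.35% of all genes.

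In the proteasome, 1 of 14 constitutive core genes and 1 of 20 genes of the 19S regulatory particle rose and 0 fell, with medians of -0.02 and -0.02. Over all genes, 3.56% rose and 1.10% fell. Psma6, an α subunit of the core, was 1.29-fold higher (95% confidence interval 1.15 to 1.46, limma adjusted p = 0.0146). Psmd8, of the regulatory particle, was 1.22-fold higher (1.09 to 1.36, limma adjusted p = 0.0453), a call lost in 9 of the 10 fits that left out 1 mouse, all but that without PBS mouse 592 (adjusted p up to 0.0989). Of 10 genes for activators and assembly factors 0 passed (median -0.06). The interferon-inducible PA28 subunits Psme1 and Psme2 were at 0.10 and 0.03, and Pomp, which assembles the core, at -0.003. Of 10 measured genes linked to cross-presentation, Rac2 (0.69) and Cybb (0.54), parts of the phagocyte oxidase, rose and 0 fell, with a median of -0.12. At an unadjusted limma p under 0.05, 2 were higher and 3 lower, against 8.13% and 7.43% of all genes. The 3 were Wdfy4 (-0.41), Clec9a (-0.32) and Sec61b (-0.18), named after their values were seen. In 7 of the 21 alternatives given below, the count called lower was 1. Cybb lost its call in 6 of 10 fits that left out 1 mouse, namely CpG1826 mice 58, 183 and 595 and PBS mice 29, 482 and 661 (limma adjusted p = 0.0251 to 0.0789 over all 10 fits).

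Many interferon-inducible genes outside antigen presentation, though not all, rose in the same tumors. Over all genes, 3.56% rose and 1.10% fell. Among 22 measured genes known to respond to type I interferon, 15 rose with 0 falling and 7 not passing, with a median log2 fold change of 0.50. The antiviral genes Mx2, Rsad2 and Mx1 changed by 1.27, 1.04 and 0.92 on the log2 scale. Of 14 measured interferon-γ-inducible genes 5 rose and 1 fell (Ciita), while 8 did not pass, with a median of 0.35. Ciita and Irf1 were also counted among the regulators. Those that rose the most were Nos2 (2.89), Cd274 (1.35) and Cxcl11 (1.05). Counts and medians of these lists describe the lists, which were not tested against the class I genes.

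**Figure D4:**
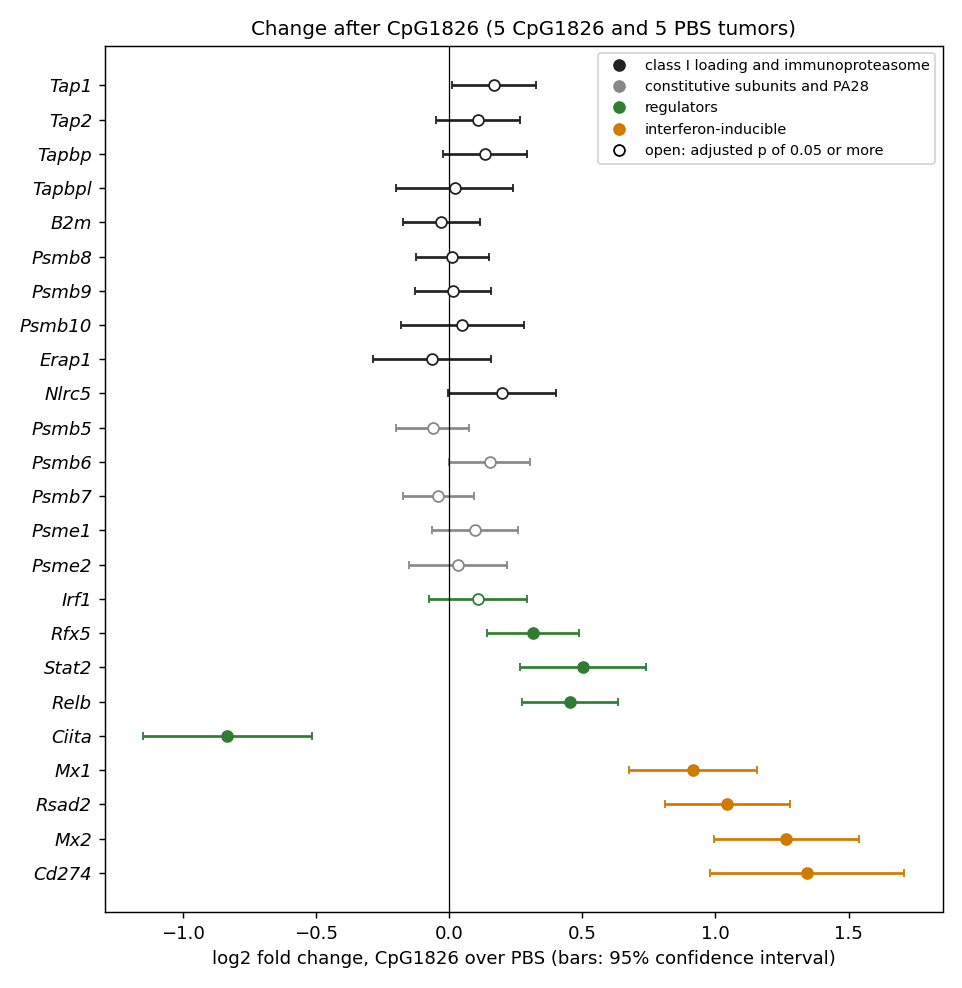
Log2 fold change of CpG1826 over PBS (x axis) with 95% confidence interval for the 10 class I genes, constitutive and PA28 subunits, regulators and interferon-inducible genes (y axis), filled where the adjusted p is under 0.05. The class I genes lie between -0.06 and 0.20 with every upper bound at or below 0.40, while Mx1, Rsad2, Mx2 and Cd274 lie between 0.92 and 1.35.

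Most of the class I genes varied together from tumor to tumor within the groups. CpG1826 mouse 50 was the lowest of its group for 7 of the 10 genes and PBS mouse 661 the lowest of its group for 9 of the 10. Several lists of other genes were also lowest of their group in both mice, as given below. Neither the share of all genes lowest in these mice nor r for pairs of other genes was computed. The co-variation therefore cannot be called particular to the class I genes. Among the 36 pairs of genes other than B2m, the deviations from the group means correlated at r = 0.17 to 0.94, with a median of 0.76. B2m stood apart, with r from -0.54 to 0.32 and a median of -0.34 over its 9 pairs, of which 1 was above 0. For Psmb8, r ran from 0.17 (Tap2) to 0.76 (Psmb9) over its 8 pairs without B2m. None of the 9 pairs of B2m and none of the 9 pairs of Psmb8 passed for r, and the Psmb8 value of CpG1826 mouse 50 (10.58) was not low in its group. Of all 45 pairs, 20 passed for Pearson's r and 2 for Spearman's rho (exact test permuting tumors within groups, two-sided, Benjamini-Hochberg over the 45 pairs). The pairs past both were Tap1 with Tapbp (r = 0.903, exact p = 0.000347, adjusted p = 0.0156, rho = 0.939, exact p = 0.000278, adjusted p = 0.0125, n = 10 tumors) and Tapbpl with Nlrc5 (r = 0.883, exact p = 0.00153, adjusted p = 0.0229, rho = 0.891, exact p = 0.000764, adjusted p = 0.0172, n = 10 tumors). Both held without mice 50 and 661, the 2 tumors farthest from the median (r = 0.913 and 0.854, n = 8).

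Of the 20 pairs that passed for r, 9 kept r above 0.7 without the 2 tumors farthest from the median of the first gene. Among them were Tap1 with Nlrc5 (r = 0.891, n = 8) and Tapbp with Tapbpl (r = 0.844, n = 8). For Psmb9 with Psmb10, also among the 9, the tumors left out were PBS mouse 661 and CpG1826 mouse 58 (r = 0.835, n = 8). Without mice 50 and 661, r of this pair was 0.366. Others of the 20 rested on mice 50 and 661. Tap1 and Psmb9, read from the shared stretch, correlated at r = 0.795 (exact p = 0.0152, adjusted p = 0.0423, rho = 0.697, exact p = 0.0369, adjusted p = 0.136, n = 10 tumors), and r was 0.370 without mice 50 and 661. Tapbp and Erap1 correlated at r = 0.859 with all tumors and r = -0.01 without the same mice (exact p = 0.0201 and adjusted p = 0.0452 with all 10, rho = 0.491, exact p = 0.170). Over the 36 pairs without B2m the median r was 0.36 without both mice. With both left out, again 0 of the 10 genes passed the limma test, a choice made after the data were seen.

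**Figure D5:**
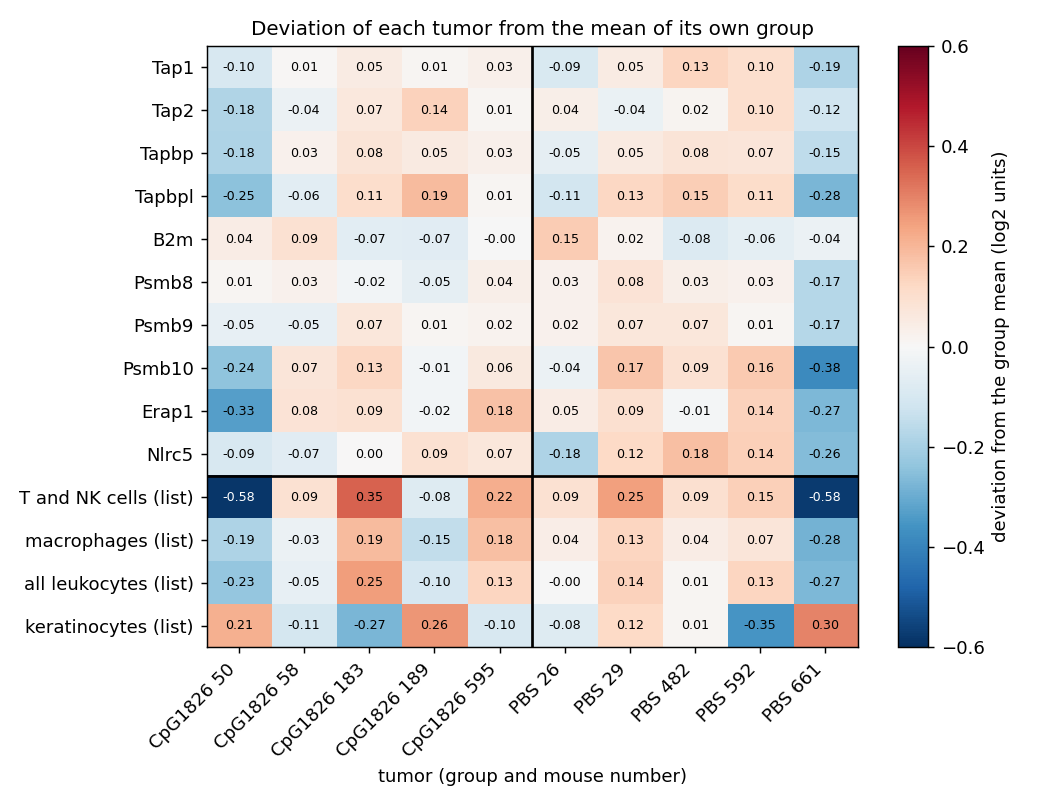
Deviation of each tumor (x axis) from the mean of its own group in log2 units, for the 10 class I genes and for the mean of 4 marker lists (y axis). CpG1826 mouse 50 and PBS mouse 661 are low for most of the genes and lowest of their group for the T and NK cell list.

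T and NK cell markers were low in the same 2 tumors. Of 11 measured T and NK cell markers, 11 were lowest of the group in CpG1826 mouse 50 and 10 in PBS mouse 661, and their mean log2 level was 6.82 and 6.85 in these mice, against 7.32 to 7.75 in the other CpG1826 and 7.52 to 7.68 in the other PBS tumors. Of 7 markers shared by all leukocytes, 6 and 5 were lowest there, and of 8 macrophage markers 2 and 7. Of 7 fibroblast markers 6 and 4 were lowest in the same mice. Some lists that hold none of the 10 class I genes were also lowest of their group in both mice. Mean log2 levels in mice 50 and 661 were 10.221 and 10.195 (constitutive core), 10.061 and 10.082 (19S particle) and 8.09 and 8.09 (cross-presentation). The interferon lists had 10.09 and 9.55 (type I) and 10.01 and 9.15 (interferon-γ). The heavy chain list and the activator and assembly list were lowest in CpG1826 mouse 50 but not in PBS mouse 661. Other leukocyte lists did not follow: of 8 dendritic cell markers 2 and 0 were lowest there, of 4 B cell markers 1 and 1, and the neutrophil list was highest of its group in both mice (7.18 in CpG1826 mouse 50 and 6.10 in PBS mouse 661). Their part in the co-variation was not tested, and in tumor RNA fewer cells of a type cannot be told apart from less RNA per cell.

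The genes outside the 10 whose deviations were most like those of a member were named for 3 members, as a description over the 10 tumors. They were picked for the highest r among all other genes of the 19938. High values are therefore in part a product of the choice, and none was tested. For Tap1 they were Stxbp3 (r = 0.974), Gbp3 (r = 0.955) and Plaat3 (r = 0.952). For Psmb8 they were Rab32 (r = 0.957), Gzmf (r = 0.938) and Cdh2 (r = 0.935), and for Nlrc5 Plaat3 (r = 0.964), Cbr3 (r = 0.958) and Pik3r4 (r = 0.956).

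Between the groups, marker lists moved for skin and neutrophils. The shares to set beside the counts are 3.56% of all genes that rose and 1.10% that fell. Of 11 keratinocyte markers 8 rose and 0 fell (mean list level 6.93 to 7.47 in CpG1826 and 5.27 to 5.93 in PBS tumors), and of 8 neutrophil markers 6 rose and 0 fell (6.69 to 7.18 and 5.78 to 6.10). Of 7 shared leukocyte markers 1 rose (Lcp1) and 1 fell (Laptm5), of 8 macrophage markers 0 rose and 1 fell (Csf1r), of 11 T and NK markers 1 rose (Gzmb), and of 8 dendritic cell markers 1 rose (Ccr7). No B cell (4), fibroblast (7) or muscle and fat (6) marker passed, and of 6 endothelial markers Tek fell. Of 8 epithelial markers 3 (Krt8, Cdh1 and Cldn4) had means above the array medians, while Epcam, Krt18, Krt19, Cldn7 and Vil1 had means below them, so the carcinoma origin rests on the labels, and Cdh1 and Epcam rose. The calls for Laptm5, Tek and Epcam held in 3, 2 and 2 of the 10 fits that left out 1 mouse. How far these cell types contribute to the levels of the class I genes was not tested.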

How the data were processed

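The authors deposited log2 values, 1 per probe and array, for 35512 probes. That the base is 2 was inferred from their range (2.03 to 14.70), and array medians of 6.47 to 6.53 show that the arrays had been brought to one scale. R 2.7.1 and limma appear in the submitters' processing notes, without a stated role. For background correction and probe summarization, no method was found in the labels or notes. The array annotation gives 1 symbol for 21789 probes, several for 1621 and none for 12102. The linear model of limma 3.58.1 (R 4.3.3; lmFit, then eBayes) was fitted to 19938 genes with no covariate, two-sided, with Benjamini-Hochberg adjustment and a threshold of 0.05.

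Named genes were the 10 members, fixed partners and regulators, up to 3 called genes per list with the largest change (or the 2 of highest level where none was called) and the 3 genes most like each of 3 members. The epithelial markers below the array medians were named after their values were seen. Members and lists were chosen with earlier results of these data known. Replicates are separate mice as numbered in the labels.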

Additional observations from a re-analysis of the deposited data

Results flagged for a closer look

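In 20 groups of 5 tumors (10 genes in each of the CpG1826 and PBS groups), 4 values lay far from the other 4 of their group by Dixon's test at the 95% level, which flags about 5% of such groups by chance, and the genes share tumors. CpG1826 mouse 50 was low for Tap1 (10.71) and for Tapbp (11.68), and PBS mouse 661 was low for Psmb8 (10.39) and for Psmb9 (10.45). Without both mice the log2 fold changes were 0.15 for Tap1, 0.14 for Tapbp, -0.03 for Psmb8 and -0.02 for Psmb9, and 0 of the 4 genes passed limma (adjusted p = 0.437, 0.401, 0.902 and 0.957).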

How the results depend on the processing

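Of the 10 class I genes 0 passed in either direction under all 21 alternatives, which were quantile normalization, median centring, 2 filters on dim genes, another prior, weighting of arrays, averaging of probes, adjustment over all probes, an adjusted p under 0.01, a 1.5-fold minimum (limma treat), each mouse left out and mice 50 and 661 both left out (chosen after the data were seen). The members' median log2 fold change ran from -0.03 to 0.10 when mice were left out in turn and was below 0 without PBS mouse 661. Genes called higher (710 as reported) were 558 to 667 and genes called lower (220) were 121 to 209 with 1 mouse left out. Genes called lower were 364 after quantile normalization, 338 without genes below the median level and 110 without mice 50 and 661. At an adjusted p under 0.01, genes called higher were 407 and genes called lower 64, and with the 1.5-fold minimum 80 and 2. With 1 mouse left out, the group difference ran from 0.04 to 0.10 for Psmb8 over Psmb5, from -0.167 to -0.085 for Psmb9 over Psmb6 and from 0.02 to 0.15 for Psmb10 over Psmb7, and Psmb9 over Psmb6 passed without PBS mouse 661 (-0.167, exact permutation adjusted p = 0.0476). Fewer mice or genes entered some of these fits, and the cause was otherwise not tested. No paired analysis was possible because the groups share no mouse number.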
